A study of Homo sapiens with 34 samples.

Results

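A set of 39 blood genes was followed through the differentiation of human embryonic stem cells (ESCs) toward heart muscle. The set was listed by gene symbol and holds 10 transcription factors of blood formation, 10 platelet and megakaryocyte genes, 9 erythroid genes and 10 genes of blood progenitors and leukocytes, out of 23189 gene symbols in the count table. Its members were chosen with earlier results of these data known, so counts over the set are not an independent test. The cells were H1, an established human ESC line, infected with a lentivirus whose short hairpin RNA (shRNA) targeted the transcript of NKX2-5, ZEB2 or ZNF503. The controls, called WT, pool H1 cells infected with the empty vector or with a hairpin directed at GFP, so they went through infection and puromycin selection as well. Each target was represented by 1 shRNA. All cells were differentiated with CHIR99021, an inhibitor of GSK3β, followed by IWP2, an inhibitor of WNT secretion, and then by insulin. Stranded total RNA was sequenced at days 0, 2, 6 and 10, with 2 usable libraries in each of 15 groups, which gave 30 libraries. Day 10 of the ZNF503 shRNA line was not analysed here.

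Blood cells and the heart both arise from mesoderm, and the earliest blood progenitors form beside endothelial cells, which share regulators with them. RUNX1 and TAL1 are transcription factors needed to set up blood progenitors, LMO2 is a bridge protein of the TAL1 complex, and LYL1 is a relative of TAL1. KLF1 drives the erythroid programme, and GFI1B and NFE2 act in erythroid cells and in megakaryocytes, the cells that shed platelets. NKX2-5 is a homeodomain factor of the early heart field, ZEB2 is a zinc finger repressor of epithelial genes, and ZNF503 is a zinc finger protein. A dish of differentiating cells is a mixture, so a change in a bulk count can come from fewer or more cells of a type or from less or more RNA per cell, and these cannot be told apart here.

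The count per library over 1 row per gene ran from 9189943 (WT, day 10, replicate 4) to 90814577. For day 10, the WT and ZEB2 shRNA libraries used are replicates 3 and 4, because the values of replicates 1 and 2 did not follow the gene rows. In the line that targets it, NKX2-5 stood at 1.30% of WT at day 6 and 1.38% at day 10, ZEB2 at 65.8%, 58.6% and 49.2% at days 2, 6 and 10, and ZNF503 at 7.00% at day 6. At day 2 ZNF503 was at 89.6% of WT, and the libraries overlapped. ZEB2 at day 6 was below WT in the other lines as well, at 20.6 and 20.5 CPM (counts scaled to the size of each library) in NKX2-5 shRNA and 10.99 and 12.8 CPM in ZNF503 shRNA cells, against 54.4 and 57.3 CPM in ZEB2 shRNA cells and 96.96 and 93.9 CPM in WT. The summed level of 12 cardiomyocyte markers was 17820 to 21170 CPM in WT, 4809 to 6861 in ZEB2 shRNA and 123 to 476 in NKX2-5 shRNA cells at day 10. Cardiac markers were thus high in WT and low in NKX2-5 shRNA cells. The summed level of 10 hepatic and visceral endoderm markers was 2227 to 5704 CPM in WT, 11250 to 13240 CPM in ZEB2 shRNA and 42150 to 54250 CPM in NKX2-5 shRNA cells at day 10. The 2 NKX2-5 shRNA libraries of day 10 differed more from each other than any other replicate pair, with a mean chi-square of 113.8 per gene against 5.53 to 47.95 in the other groups, a measure that also grows with depth. The labels do not say that replicates came from separate cultures, so p-values measure only the spread between these libraries. Fold changes and adjusted p-values are from edgeR's quasi-likelihood test, with p-values adjusted by the Benjamini-Hochberg method across every gene that passed the filter.

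**Figure D1:**
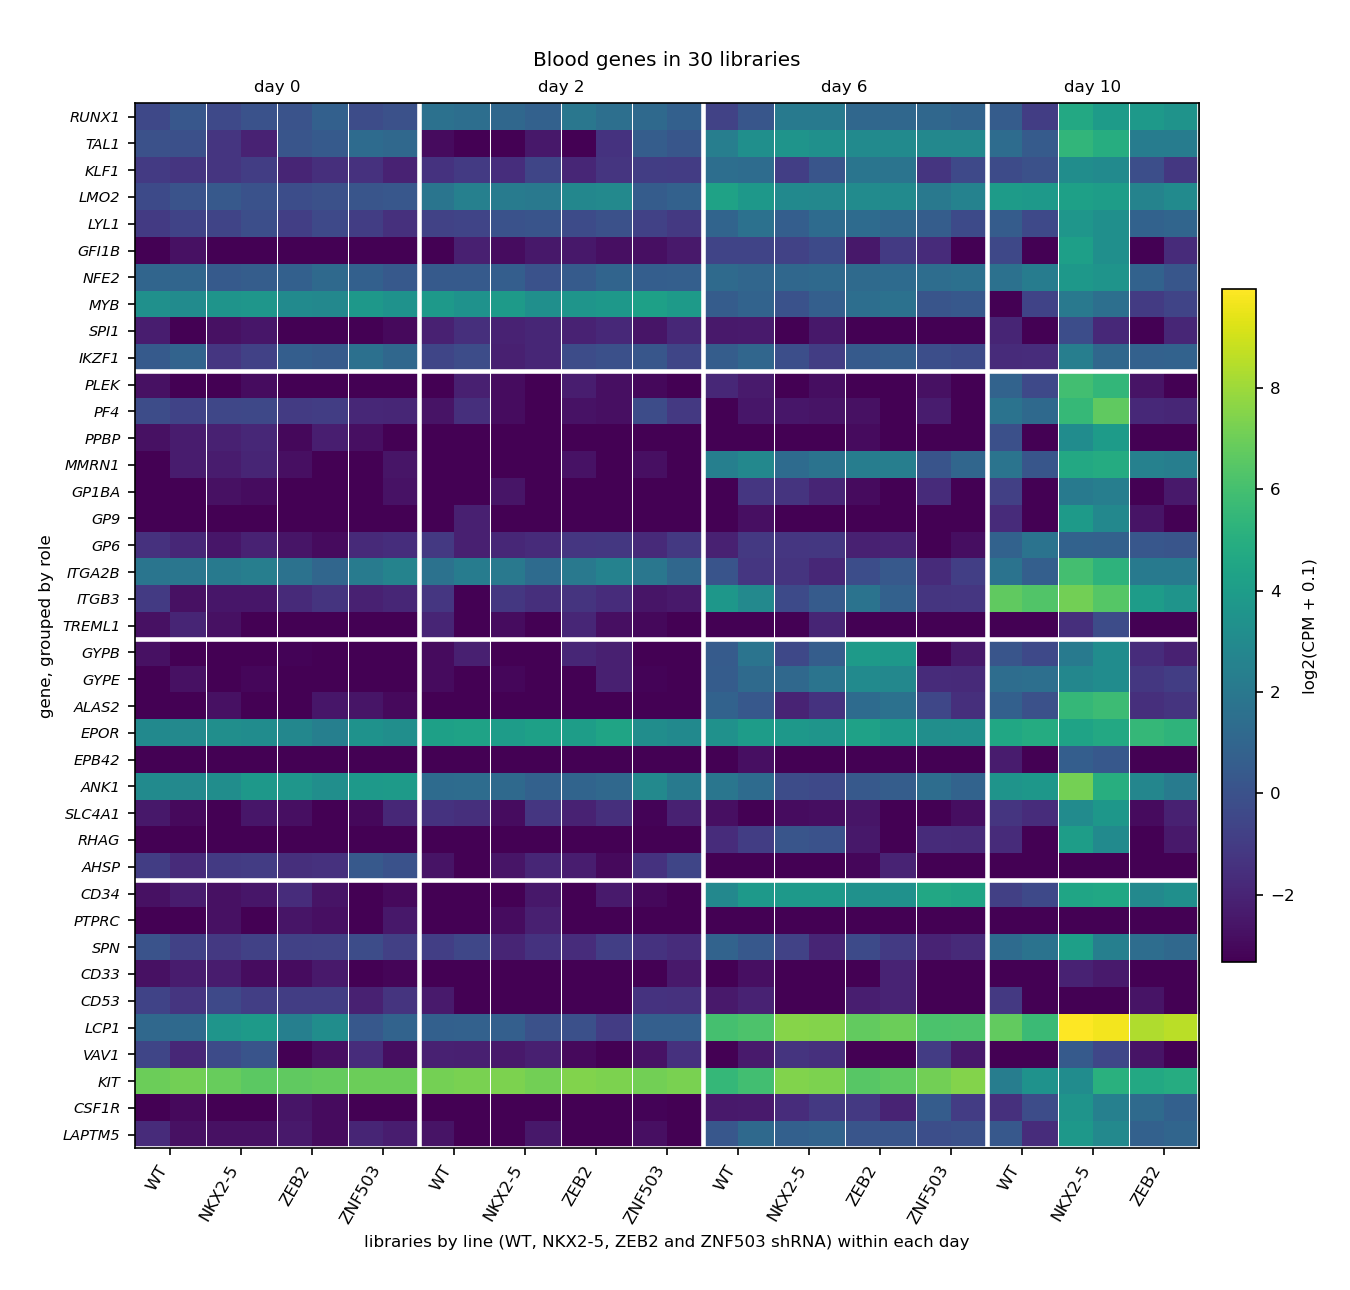
Level of each of the 39 blood genes in 30 libraries, as log2(CPM + 0.1). Columns are libraries ordered by day and line, rows are genes grouped by role from top (transcription factors, platelet, erythroid, progenitor and leukocyte genes), and colours are to be compared within a row. The mean of 30 of the 39 genes was highest in NKX2-5 shRNA cells at day 10, a count that was not set against all genes.

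The mean level of 30 of the 39 genes peaked in NKX2-5 shRNA cells at day 10. The share of all genes that peaked in this group was not computed, so the count has no background beside it. The other 9 peaked elsewhere: MYB in ZNF503 shRNA cells at day 2, KIT in ZEB2 shRNA cells at day 2, CD34 in ZNF503 shRNA cells at day 6, GYPB in ZEB2 shRNA cells at day 6, EPOR in ZEB2 shRNA cells at day 10 and GP6 in WT cells at day 10, while AHSP, CD53 and PTPRC peaked at days 0 or 2 at low levels. For CD34 the order is not firm, since the ZNF503 shRNA libraries of day 6 held 24.6 and 21.7 CPM and the NKX2-5 shRNA libraries of day 10 held 22.1 and 23.9 CPM. Of the 39 genes, 6 stayed below a mean of 1 CPM in every group: SPI1, TREML1, PTPRC, CD33, CD53 and VAV1. SPI1, TREML1, CD33 and VAV1 are among the 30, so their peaks rest on low levels. PTPRC encodes CD45, the surface phosphatase of nearly all leukocytes, and had 0 counts in every library of days 6 and 10.

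The question of the day 10 comparison is how loss of a cardiac factor changes the cells that form under cardiac conditions. In NKX2-5 shRNA cells, 19 of the 39 blood genes were called higher than in WT and 0 lower, where called means at least 8-fold at a 1% false discovery rate (FDR), the study's threshold for days 6 and 10. Of all 17004 genes tested, 4.46% were called higher and 2.85% lower. The members were chosen with earlier results of these data known, so setting them against these shares is a description. The study had itself reported RUNX1, TAL1, KLF1, PLEK, PF4 and MMRN1 as raised or high in these cells. The 19 were 6 of 10 transcription factors, 6 of 10 platelet genes, 3 of 9 erythroid genes and 4 of 10 progenitor and leukocyte genes. At 5% FDR without a fold threshold, 28 were higher and 0 lower, against 23.3% higher and 20.6% lower of all genes. The filter on low counts let through 33 members. Of the 39, 22 had 10 counts or more in at least 2 of the 4 WT and ZEB2 shRNA libraries, and 12 of these were among the called genes. The other 7 called genes passed the filter through the NKX2-5 shRNA libraries, where they are high. The count of called genes fell without either WT library and rose without either NKX2-5 shRNA library. The groups of day 10 share an estimate of the spread, so this does not show which group the calls rest on. The 7 genes called with any of these libraries left out were TAL1, PLEK, MMRN1, ITGA2B, ALAS2, CD34 and LCP1.

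**Figure D2:**
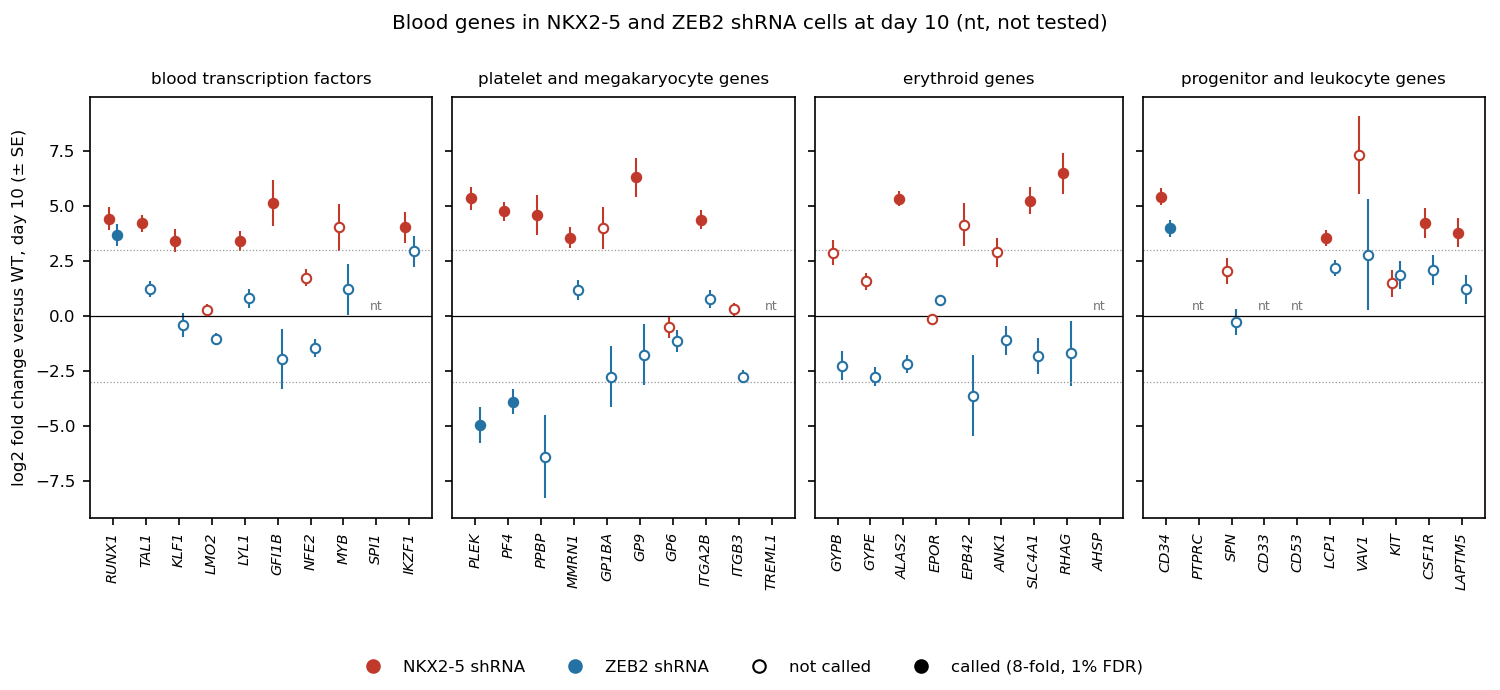
Log2 fold change ± standard error of each blood gene against WT at day 10 in NKX2-5 shRNA (red) and ZEB2 shRNA (blue) cells, 2 libraries per group, with filled points for called genes and dotted lines at 8-fold. Both comparisons use the same WT libraries. In red, 19 filled points lie above the upper dotted line and none below the lower, and in blue 2 lie above (RUNX1 and CD34) and 2 below (PLEK and PF4).

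Among the transcription factors, RUNX1, the master regulator of definitive blood formation (GRCh37 chromosome 21, 36160098 to 37376965, minus strand), was at 25.9 and 15.4 CPM in the NKX2-5 shRNA libraries, 1.35 and 0.436 CPM in WT and 13.8 and 11.1 CPM in ZEB2 shRNA cells. Both shRNA lines lay above WT without overlap. The log2 fold change over WT was 4.41 ± 0.53 (SE) with an adjusted p of 0.000988 in NKX2-5 shRNA cells. TAL1, which assembles the blood progenitor complex (chromosome 1, 47681962 to 47697897, minus strand), was at 42.0 and 30.6 CPM, against 2.49 and 1.31 CPM in WT and 4.62 and 4.58 CPM in ZEB2 shRNA cells. GFI1B, a repressor that acts in erythroid cells and megakaryocytes (chromosome 9, 135819387 to 135867074, plus strand), was at 17.6 and 9.57 CPM, against 0.622 and 0 CPM in WT and 0 and 0.214 CPM in ZEB2 shRNA cells. The gene was therefore near the limit of detection outside the NKX2-5 shRNA line, and its call was lost in DESeq2, with an adjusted p of 0.0535. KLF1, the erythroid activator of globin genes, was at 8.94 and 7.95 CPM, against 0.726 and 0.871 CPM in WT. LYL1, a relative of TAL1, was at 12.4 and 9.57 CPM, against 1.35 and 0.653 CPM in WT. IKZF1, a zinc finger factor of early lymphoid and other blood cells, was at 4.95 and 2.05 CPM, against 0.207 and 0.218 CPM in WT and 1.61 and 1.67 CPM in ZEB2 shRNA cells.

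The other 4 transcription factors were not called. NFE2, which turns on late megakaryocyte genes, was at 13.3 and 11.8 CPM against 3.01 and 4.68 CPM in WT, a log2 fold change of 1.73 with an adjusted p of 0.0113. MYB, a factor of proliferating progenitors, was at 3.99 and 2.76 CPM against 0 and 0.545 CPM in WT, with an adjusted p of 0.0208. LMO2, the bridge protein of the TAL1 complex, was at 18.4 and 16.5 CPM against 15.3 and 13.7 CPM in WT, a log2 fold change of 0.27 ± 0.27 with an adjusted p of 0.437. SPI1, the myeloid factor PU.1, had too few counts to be tested, with at most 0.769 CPM in any library of day 10. TAL1 and LYL1 thus rose while LMO2, their partner, did not pass the test.

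Of the platelet genes, both granule chemokines and pleckstrin were called higher. PF4, a chemokine stored in platelet granules, was at 46.6 and 102.9 CPM in NKX2-5 shRNA cells, 3.27 and 2.18 CPM in WT and 0.186 and 0.171 CPM in ZEB2 shRNA cells. PPBP, the precursor of another platelet granule chemokine, lies next to it on chromosome 4 (PF4 at 74846528 to 74847744 and PPBP at 74852156 to 74853907, GRCh37) and was at 8.51 and 15.4 CPM, against 0.830 and 0 CPM in WT and 0 counts in both ZEB2 shRNA libraries. For both chemokines the second NKX2-5 shRNA library was the higher. PF4 shares near-identical sequence with PF4V1, which had 113 and 278 counts in the NKX2-5 shRNA libraries, so reads may be split between the copies. PPBP lost its call in DESeq2, with an adjusted p of 0.142. PLEK, pleckstrin, a substrate of protein kinase C in platelets, was at 61.3 and 43.98 CPM, against 1.76 and 0.653 CPM in WT and 0.062 and 0 CPM in ZEB2 shRNA cells. Its log2 fold change over WT was 5.34 ± 0.51 with an adjusted p of 0.000452.

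The receptors and adhesion proteins of platelets did not move alike. ITGA2B, the alpha subunit of the fibrinogen receptor, was at 63.5 and 38.3 CPM in NKX2-5 shRNA cells, 3.21 and 1.53 CPM in WT and 4.09 and 4.28 CPM in ZEB2 shRNA cells. The rise over WT was 4.37 ± 0.43 on the log2 scale. ITGB3, its beta subunit, which is also used outside platelets, was at 137.2 and 86.6 CPM against 105.0 and 79.6 CPM in WT, with a log2 fold change of 0.29 ± 0.29 and an adjusted p of 0.449. Its level in the ZEB2 shRNA line was 15.7 and 11.5 CPM, below both other lines. GP9, a subunit of the von Willebrand factor receptor, was at 14.7 and 7.19 CPM against 0.207 and 0 CPM in WT. GP1BA, a partner subunit of that receptor, was at 4.28 and 5.09 CPM against 0.467 and 0 CPM in WT, and it missed the call with an adjusted p of 0.0131. GP6, a collagen receptor, was at 1.68 and 1.67 CPM against 1.71 and 3.16 CPM in WT, a log2 fold change of -0.50 ± 0.50 with an adjusted p of 0.440. MMRN1, a carrier of clotting factor V in platelets and endothelium, was at 25.2 and 28.8 CPM against 3.32 and 1.09 CPM in WT. TREML1 was not tested, with at most 0.762 CPM.

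Erythroid genes of haem synthesis and of the red cell membrane were called in 3 of 9 cases. ALAS2, the erythroid enzyme that starts haem synthesis (GRCh37 chromosome X, 55035488 to 55057410, minus strand), was at 46.2 and 55.3 CPM in NKX2-5 shRNA cells, 1.56 and 0.871 CPM in WT and 0.248 and 0.300 CPM in ZEB2 shRNA cells. Its log2 fold change over WT was 5.32 ± 0.35 with an adjusted p of 0.000169, the smallest standard error among the 19 called genes. RHAG, the Rh-associated channel of the red cell membrane (chromosome 6, 49572888 to 49604552, minus strand), was at 16.8 and 7.90 CPM against 0.207 and 0 CPM in WT and 0 and 0.086 CPM in ZEB2 shRNA cells. SLC4A1, band 3, the anion exchanger, was at 8.26 and 12.8 CPM against 0.311 and 0.218 CPM in WT. Ankyrin, encoded by ANK1, which ties band 3 to the skeleton, was at 145.9 and 31.3 CPM against 11.4 and 12.96 CPM in WT, with a log2 fold change of 2.88 ± 0.66 and an adjusted p of 0.0112. The value depended on the library, with a log2 fold change of 1.38 without NKX2-5 shRNA replicate 1 and 3.61, past the call, without replicate 2. EPB42, protein 4.2, was at 1.44 and 1.14 CPM against 0.104 and 0 CPM in WT.

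The glycophorins and 2 other erythroid genes behaved otherwise. GYPB was at 4.13 and 8.52 CPM against 1.04 and 0.653 CPM in WT, a log2 fold change of 2.86 ± 0.57 with an adjusted p of 0.00665, just under 8-fold. GYPE was at 7.02 and 8.71 CPM against 2.59 and 2.72 CPM in WT, with an adjusted p of 0.0135. Both belong to a family of near-identical genes on chromosome 4, so the split of reads between them is uncertain. EPOR, the erythropoietin receptor, did not differ by the test, at 20.8 and 26.04 CPM against 24.0 and 28.9 CPM in WT, but its row is a non-coding transcript that holds 50.8% of the summed rows of the gene. AHSP, the chaperone of free alpha globin, had 0 counts in every library of day 10.

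Among progenitor and leukocyte genes, CD34, the surface marker of blood progenitors and of endothelium (GRCh37 chromosome 1, 208054317 to 208084747, minus strand), was at 22.1 and 23.9 CPM in NKX2-5 shRNA cells, 0.467 and 0.653 CPM in WT and 7.35 and 9.76 CPM in ZEB2 shRNA cells. The 3 lines did not overlap, and the log2 fold change over WT was 5.41 ± 0.38 with an adjusted p of 0.000192. LCP1, plastin 2, an actin bundling protein of leukocytes that epithelial cells can also make, was at 983.7 and 837.4 CPM against 106.1 and 52.2 CPM in WT and 329.2 and 385.8 CPM in ZEB2 shRNA cells. CSF1R, the receptor for macrophage colony-stimulating factor, was at 11.5 and 5.43 CPM against 0.259 and 0.762 CPM in WT. LAPTM5, a lysosomal protein of blood cells, was at 13.3 and 7.52 CPM against 1.14 and 0.218 CPM in WT. SPN, leukosialin, was at 17.6 and 5.28 CPM against 2.39 and 3.27 CPM in WT, and was not called. KIT, the stem cell factor receptor, was at 8.70 and 34.0 CPM against 4.82 and 10.9 CPM, so that the groups overlapped, with an adjusted p of 0.0959. Of the genes of this list below a mean of 1 CPM in every group, PTPRC and CD53 had 0 counts in both NKX2-5 shRNA libraries. CD33 reached 0.144 CPM. VAV1 was at 1.25 and 0.619 CPM against 0 counts in both WT libraries, and was higher at 5% FDR without a call. It passed the filter through the NKX2-5 shRNA libraries, where it is high.

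The promoters of the members were examined for the GATA hexamers AGATAA and TGATAA, because GATA1, the erythroid and megakaryocyte factor that binds such sites, was called higher in the same comparison. GATA1 was at 21.1 and 9.19 CPM in NKX2-5 shRNA cells, 0.311 and 0.218 CPM in WT and 0 in ZEB2 shRNA cells, with a log2 fold change over WT of 5.76 ± 0.67. RefSeq promoters (GRCh38.p14, 250 bases before to 50 after the start) were matched by symbol for 29 of the 39 members, 17 of them among the 19 called. The members without an entry were LMO2, NFE2, SPI1, PF4, GP1BA, ITGB3, ANK1, SLC4A1, AHSP and SPN. Searched on both strands, 15 of 38 promoters of members held a hexamer (39.5%), against 16.3% of all 35116 promoters. By gene, 9 of the 17 called members held one, and 5 of the 12 others, against 5289 of all 27305 symbols. The 7 promoters of erythroid genes, which stand for 6 genes, all held one. Those of GYPB were overlapping windows. A hexamer was also in 5 of 11 promoters of the transcription factors and 3 of 9 of the platelet genes, against 0 of 11 of the progenitor and leukocyte genes. A match is a description of the letters and says nothing of binding in these cells. The sequences below, shown for called members of 3 roles, are written 5′ to 3′ on the strand of the gene with the hexamer, or its reverse complement TTATCT or TTATCA, in capitals: GFI1B at chr9:132978444-132978743 (plus strand), PPBP at chr4:73988141-73988440 (minus), RHAG at chr6:49636790-49637089 (minus), ALAS2 at chrX:55030928-55031227 (minus), and GP9 at chr3:129060529-129060828 (plus), a called gene without a match.
GFI1B: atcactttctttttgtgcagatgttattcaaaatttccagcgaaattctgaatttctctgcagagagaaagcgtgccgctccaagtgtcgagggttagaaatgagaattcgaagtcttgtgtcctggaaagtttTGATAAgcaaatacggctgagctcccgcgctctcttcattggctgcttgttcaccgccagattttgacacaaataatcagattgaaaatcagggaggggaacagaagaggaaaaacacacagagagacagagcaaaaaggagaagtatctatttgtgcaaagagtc
PPBP: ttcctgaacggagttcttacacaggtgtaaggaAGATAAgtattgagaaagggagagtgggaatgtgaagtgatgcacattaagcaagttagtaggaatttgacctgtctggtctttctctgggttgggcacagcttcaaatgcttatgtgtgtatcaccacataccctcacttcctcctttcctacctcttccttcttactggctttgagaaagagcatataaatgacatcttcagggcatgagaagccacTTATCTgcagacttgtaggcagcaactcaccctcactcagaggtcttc
RHAG: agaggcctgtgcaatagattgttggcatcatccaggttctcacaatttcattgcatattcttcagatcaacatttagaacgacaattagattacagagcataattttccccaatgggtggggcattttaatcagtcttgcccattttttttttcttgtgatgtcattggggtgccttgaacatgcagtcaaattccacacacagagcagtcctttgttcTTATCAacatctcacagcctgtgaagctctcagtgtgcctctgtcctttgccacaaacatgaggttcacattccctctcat
ALAS2: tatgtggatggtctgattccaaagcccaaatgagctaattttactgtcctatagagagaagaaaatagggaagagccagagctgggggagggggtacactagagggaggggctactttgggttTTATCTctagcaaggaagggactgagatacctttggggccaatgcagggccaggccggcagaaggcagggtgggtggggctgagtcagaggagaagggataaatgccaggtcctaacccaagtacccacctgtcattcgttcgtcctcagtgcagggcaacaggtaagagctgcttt
GP9: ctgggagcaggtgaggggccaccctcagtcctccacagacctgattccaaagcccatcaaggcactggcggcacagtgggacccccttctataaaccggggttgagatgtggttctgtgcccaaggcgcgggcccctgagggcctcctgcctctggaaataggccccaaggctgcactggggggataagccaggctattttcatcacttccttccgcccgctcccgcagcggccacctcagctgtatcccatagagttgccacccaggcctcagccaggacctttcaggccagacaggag
Counted from the start site, the hexamer began at -116 in GFI1B, -217 and 3 in PPBP, -31 in RHAG and -127 in ALAS2. GFI1B alone among these had TGATAA in the direction of the gene, and PPBP had AGATAA once in each direction.

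Other genes of the same programmes were counted by lists, beside the 4.46% of all genes called higher and 2.85% called lower in this comparison. Of 18 other blood regulators 4 were called higher and 0 lower in NKX2-5 shRNA cells at day 10, with ERG and ZBTB16 beside GATA1 as the 3 largest changes. Of 20 other platelet genes 7 were called higher and 0 lower, among them PTGS1, the platelet cyclooxygenase, at 346.5 and 11.1 CPM against 0.830 and 0.653 CPM in WT, and FERMT3, the kindlin of blood cells. PTGS1 in the first NKX2-5 shRNA library was far above the second. Of 22 other red cell membrane genes 5 were called higher and 1 lower, with TMOD1, which heart muscle also uses, as the lower gene with a log2 fold change of -6.45. Of 15 genes of haem synthesis and iron uptake 1 was called, HMOX1, which degrades haem. Of 22 myeloid genes 4 were called higher, with CD163, CEBPA and SRGN as the largest changes, and of 16 lymphoid genes 1, CD3D, at 2.79 and 2.24 CPM against 0.207 and 0.436 CPM in WT. The share called among haem synthesis genes, all of which were tested, was near that of all genes. Only 4 of the 16 lymphoid genes passed the filter, too few to set against that share.

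Markers of other cell types were counted in the same comparison, where 4.46% and 2.85% of all genes were called higher and lower, and 23.3% and 20.6% were higher and lower at 5% FDR. Of 12 endothelial markers 6 were called higher and 11 were higher and 1 lower at 5% FDR in NKX2-5 shRNA cells, among them TIE1 at 15.5 and 14.6 CPM against 0.311 and 0.653 CPM in WT and PECAM1 at 22.4 and 13.5 CPM against 0.830 and 0.109 CPM. Their summed level, 269 to 394 CPM, overlapped the 374 to 473 CPM of WT, and 0 of the 12 were absent from both NKX2-5 shRNA libraries. ERG stands both in this list and among the blood regulators. Of 10 hepatic markers 7 were called higher, and all 12 cardiomyocyte markers were called lower. The part of these cell types in the blood gene levels was not tested.

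ZEB2 shRNA cells at day 10 gave a different picture. Against WT, 2 blood genes were called higher (RUNX1 and CD34) and 2 lower (PLEK and PF4), where 0.976% of all genes were called higher and 0.482% lower. The log2 fold change was 3.67 ± 0.52 for RUNX1, 3.97 ± 0.37 for CD34, -4.98 ± 0.82 for PLEK and -3.91 ± 0.57 for PF4. PLEK had 2 counts over both ZEB2 shRNA libraries and 40 over both WT libraries, a 39.1-fold ratio with a 95% counting interval of 10.1 to 333.6. At 5% FDR 4 genes were higher and 7 lower, against 10.6% and 7.67% of all genes, IKZF1 and LCP1 among the higher and ITGB3, GYPE, ALAS2, LMO2 and NFE2 among the lower. With any 1 of the 4 libraries left out, 0 genes were called, and the adjusted p rose to at most 0.0429 for RUNX1, 0.0295 for CD34, 0.0867 for PLEK and 0.0598 for PF4. The fold changes kept their direction in each of these fits.

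Set directly against ZEB2 shRNA cells, the NKX2-5 shRNA cells had 15 blood genes called higher and 0 lower, where 0.753% of all genes were called higher and 1.19% lower. These were 3 transcription factors (KLF1, GFI1B and NFE2), 7 platelet genes and 5 erythroid genes, and none of the 10 progenitor and leukocyte genes. The 7 tested progenitor and leukocyte genes, none of them called, had a median log2 difference of 2.11, against 0.005 for all genes. Of these 7, 6 were positive and 1 negative, and VAV1 passed the filter through the NKX2-5 shRNA libraries. Of the 15, 9 did not have 10 counts in at least 2 of the WT and ZEB2 shRNA libraries, so they passed the filter through the NKX2-5 shRNA libraries, where they are high. PPBP was at least 108-fold higher, taking 3 counts per ZEB2 shRNA library as the floor, and PF4 had a log2 difference of 8.66 ± 0.57. ALAS2 differed by 7.52 ± 0.39 on the log2 scale. RUNX1, by contrast, differed by 0.74 ± 0.43 with an adjusted p of 0.243, IKZF1 by 1.10 ± 0.54 with an adjusted p of 0.176, and KIT by -0.38 ± 0.60 with an adjusted p of 0.682. A p that misses the threshold does not show that these levels were alike. Without either ZEB2 shRNA library the count fell from 15 to 3.

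At day 6 few blood genes passed the 8-fold threshold against WT. In NKX2-5 shRNA cells 1 was called, ITGB3, at 0.700 and 1.30 CPM against 12.9 and 7.51 CPM in WT, a log2 fold change of -3.29 ± 0.40, where 3.42% of all genes were called lower. In ZNF503 shRNA cells 1 was called higher, CSF1R at 1.33 and 0.406 CPM against 0.087 and 0.096 CPM, and 3 lower, where 1% of all genes were called higher and 2.91% lower. The lower genes were ITGB3 at 0.307 and 0.325 CPM, GYPB at 0 and 0.081 CPM against 1.30 and 3.29 CPM in WT, and GYPE at 0.205 and 0.203 CPM against 1.35 and 2.33 CPM. GYPB had 2 counts in ZNF503 shRNA and 167 in WT cells, a 57.0-fold ratio with a counting interval of 15.5 to 475. Knockdown of ZEB2 gave 0 calls by edgeR or DESeq2, where 0.462% of all genes were, though 11 of the 39 had an unadjusted p under 0.05 in edgeR and 9 in DESeq2. The ITGB3 call in NKX2-5 shRNA cells was lost without WT replicate 1, which left 0 genes called, or without NKX2-5 shRNA replicate 1, where its fold was under 8 and another gene was called, and 2 genes were called without WT replicate 2 or NKX2-5 shRNA replicate 2. In ZNF503 shRNA cells the CSF1R call was lost without either WT library or without ZNF503 shRNA replicate 1, with an adjusted p of up to 0.102, and the GYPE call without WT replicate 2, at a log2 fold change of -2.72. For ZEB2 shRNA, 1 gene was called without WT replicate 2.

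**Figure D3:**
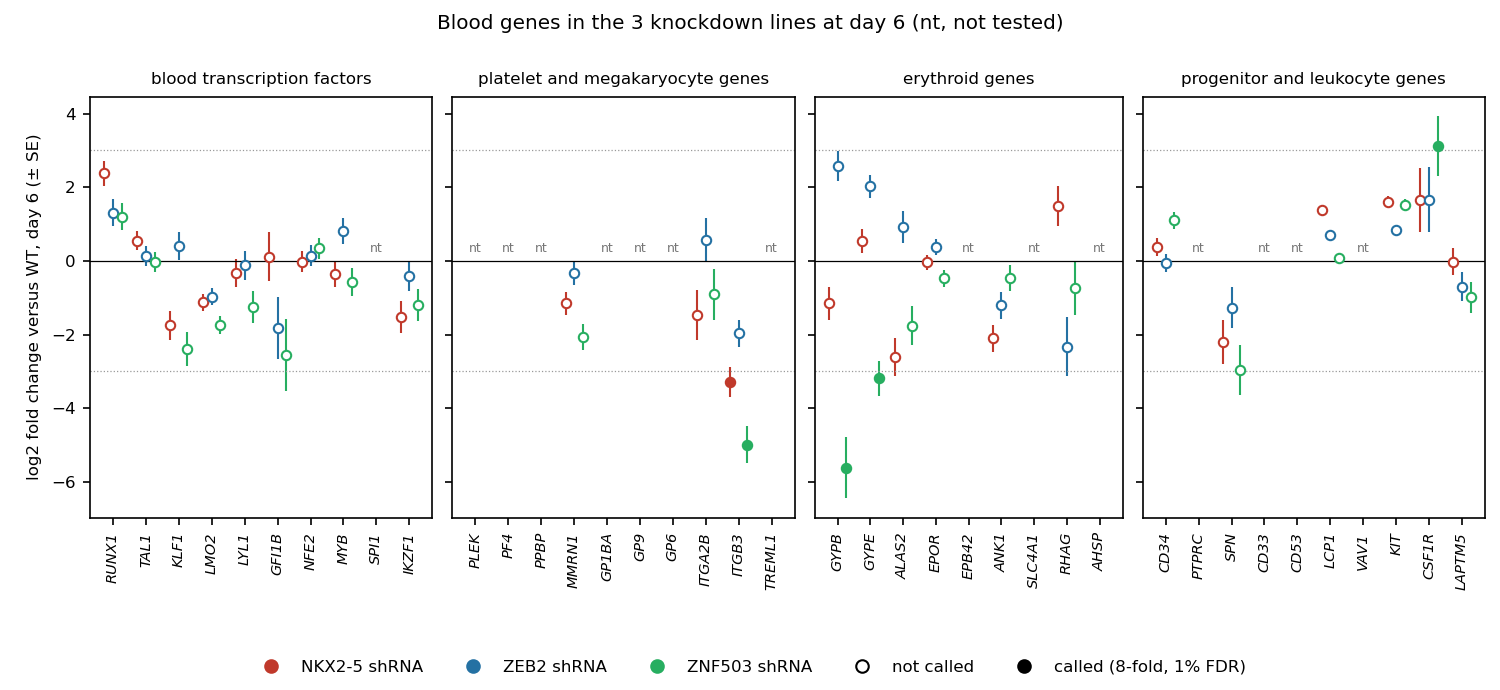
Log2 fold change ± standard error of each blood gene against WT at day 6 in NKX2-5 (red), ZEB2 (blue) and ZNF503 (green) shRNA cells, 2 libraries per group, with filled points for called genes and dotted lines at 8-fold; nt marks genes with too few counts. All 3 comparisons use the same WT libraries. ITGB3 is the filled red point, and ITGB3, GYPB, GYPE and CSF1R are the filled green points.

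Counts at 5% FDR without a fold threshold, which take in the called genes, were also made at day 6. They were 4 higher and 9 lower for NKX2-5 shRNA, 5 and 2 for ZEB2 shRNA, and 4 and 11 for ZNF503 shRNA. Of all genes, 24.4% and 24.7%, 5.67% and 5.33%, and 27.2% and 28.5% were higher and lower. RUNX1 and KIT were higher in each line. RUNX1 was at 4.39 and 4.29 CPM in NKX2-5 shRNA, 2.04 and 2.07 in ZEB2 shRNA and 2.05 and 1.79 in ZNF503 shRNA cells, against 0.521 and 1.06 CPM in WT. KIT was at 171.8 and 159.7, 90.1 and 101.3, and 138.7 and 175.4 CPM, against 46.2 and 61.5 CPM in WT. The 3 lines share the WT libraries, so these values are not independent. LMO2 was lower in each line, at 7.85 and 7.29, 8.48 and 8.15, and 4.09 and 5.81 CPM against 19.6 and 13.3 CPM. KLF1, ALAS2 and SPN were lower in the NKX2-5 and ZNF503 shRNA lines, with ALAS2 at 0.147 and 0.280 CPM and at 0.613 and 0.244 CPM against 1.69 and 1.15 CPM in WT. With ZEB2 knocked down, GYPB was at 14.9 and 13.4 CPM against 1.30 and 3.29 CPM in WT, a log2 fold change of 2.58 ± 0.41 with an adjusted p of 0.00137, and GYPE was at 7.92 and 7.33 CPM against 1.35 and 2.33 CPM. NKX2-5 and ZNF503 shRNA cells, compared with each other, differed by the call in GYPB (4.46 ± 0.93) and GYPE (3.735 ± 0.47), both higher in NKX2-5 shRNA cells, where 0.237% of all genes were called higher. Without ZNF503 shRNA replicate 1 the count was 0, and without ZNF503 shRNA replicate 2 or NKX2-5 shRNA replicate 2 it was 1. The summed level of the 10 hepatic markers at day 6 was 10530 to 10540 CPM in NKX2-5, 6607 to 6825 in ZNF503, 659 to 1017 in ZEB2 shRNA and 617 to 1352 in WT cells, and its part in these values was not tested.

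Levels at day 6 were also set against those at day 2 within each line. Between these days 9 blood genes were called higher and 0 lower in WT (4.88% and 3.46% of all genes were called higher and lower), 11 higher and 2 lower in NKX2-5 shRNA (4.58% and 4.46%), 11 higher and 0 lower in ZEB2 shRNA (5.04% and 3.09%) and 5 higher and 5 lower in ZNF503 shRNA cells (5.31% and 4.52%). These counts rest on unequal sets, because each line was filtered on its own over all of its days. The filter let through 25 members in WT, 35 in NKX2-5 shRNA, 25 in ZEB2 shRNA and 22 in ZNF503 shRNA cells. CD34 and MMRN1, which endothelium also expresses, LCP1 and LAPTM5 were called higher in each of the 4 lines. In WT, CD34 went from 0 counts to 7.30 and 13.9 CPM, at least 75.2-fold, and MMRN1 from 0 counts to 5.12 and 7.32 CPM, at least 44.1-fold. TAL1 went from 1 count over both libraries to 5.04 and 9.51 CPM in WT. In ZNF503 shRNA cells TAL1 already stood at 1.40 and 1.08 CPM at day 2 and reached 7.26 and 7.27 CPM at day 6. MYB was lower at day 6 in each of the 4 lines at 5% FDR, and past the 8-fold call in NKX2-5 and ZNF503 shRNA cells, which was not tested as a difference between lines. It fell by 2.95 ± 0.41 on the log2 scale in WT and by 2.18 ± 0.22 in ZEB2 shRNA cells, and went from 14.8 and 9.58 CPM to 0.921 and 1.52 CPM in NKX2-5 shRNA cells, where the call was lost without day 2 replicate 1 or day 6 replicate 1. Without NKX2-5 shRNA day 2 replicate 1 the NKX2-5 shRNA count was 7, and without WT day 2 replicate 1 the WT count was 6. The ZNF503 shRNA count was 6 without day 2 replicate 1 or day 6 replicate 1.

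**Figure D4:**
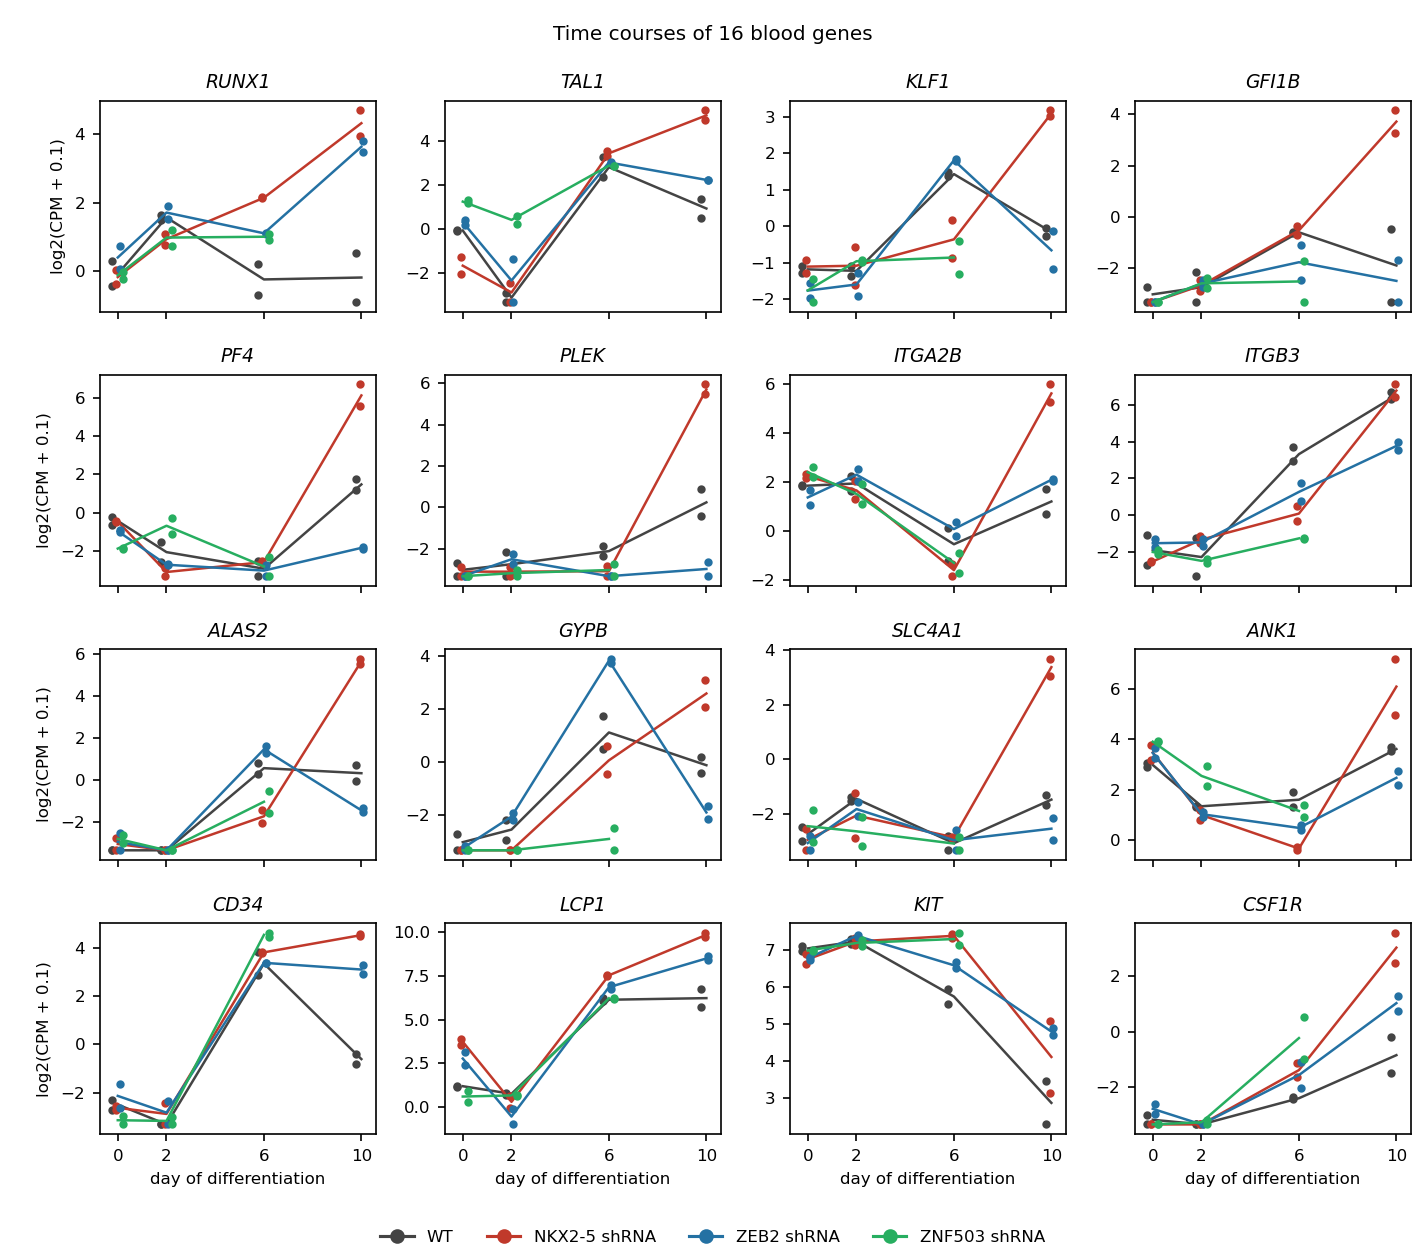
Time courses of 16 blood genes as log2(CPM + 0.1) against the day of differentiation, 1 panel per gene, with points for libraries (shifted sideways by line) and lines through the mean of each line. Rows of panels are transcription factors, platelet genes, erythroid genes and progenitor genes. From day 6 to day 10 PLEK, PF4, ITGA2B and ALAS2 climb in NKX2-5 shRNA cells (red). KIT drops in WT, NKX2-5 shRNA and ZEB2 shRNA cells, CD34 drops in WT and GYPB drops in ZEB2 shRNA cells.

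From day 6 to day 10 the lines parted. In WT, 4 genes were called higher (PLEK, PF4, GP6 and ITGB3) and 2 lower (MYB and CD34), where 2.73% and 1.21% of all genes were called higher and lower. CD34 fell in WT from 7.30 and 13.9 CPM to 0.467 and 0.653 CPM. In NKX2-5 shRNA cells 17 were called higher and 1 lower, where 4.78% and 0.757% of all genes were. Each line was filtered on its own, so the counts of the lines rest on unequal sets. The filter let through 35 members in NKX2-5 shRNA cells, 25 in WT and 25 in ZEB2 shRNA cells. GP9 and EPB42, both called in NKX2-5 shRNA cells, had 0 counts there at days 0, 2 and 6. They passed the filter through the day 10 libraries of that line, where they are high. In the same line ITGA2B went from 0.295 and 0.180 CPM to 63.5 and 38.3 CPM, and ALAS2 from 0.147 and 0.280 CPM to 46.2 and 55.3 CPM. PPBP and GP9 went from 0 counts to at least 140-fold and 128-fold higher. KIT was the gene called lower, by 3.01 ± 0.53 on the log2 scale, just past 8-fold, and it was not called with library totals (-2.915), with RLE size factors or in DESeq2 (both -2.938). KIT fell in the other lines too, without a call. It went from 46.2 and 61.5 CPM to 4.82 and 10.9 CPM in WT. In ZEB2 shRNA cells it went from 90.1 and 101.3 CPM to 25.8 and 29.7 CPM. In ZEB2 shRNA cells 0 were called higher and 3 lower, where 3.48% and 0.625% of all genes were. These were GYPB, from 14.9 and 13.4 CPM to 0.217 and 0.129 CPM, GYPE, from 7.92 and 7.33 CPM to 0.341 and 0.428 CPM, and ALAS2, from 2.37 and 3.04 CPM to 0.248 and 0.300 CPM. Without either NKX2-5 shRNA day 6 library the NKX2-5 shRNA count was 11. The WT count was 3 without day 6 replicate 2 or day 10 replicate 3, and the ZEB2 shRNA count was 5 without day 6 replicate 1.

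The change from day 6 to day 10 was compared between lines by an interaction term. In NKX2-5 shRNA cells it exceeded that of WT by the call in 14 blood genes and fell short in 0, where 2.28% and 0.63% of all genes did. The 14 were TAL1, KLF1, LYL1, IKZF1, PLEK, MMRN1, ITGA2B, ITGB3, GYPB, ALAS2, ANK1, CD34, SPN and LAPTM5, with ALAS2 as the largest at 7.93 ± 0.53 on the log2 scale. RUNX1 was not among them, with a difference of 2.01 ± 0.63 and an adjusted p of 0.0401. Without NKX2-5 shRNA day 6 replicate 1 the count was 9. For the ZEB2 shRNA line the difference from the WT change was 4.01 ± 0.49 for CD34 and -4.84 ± 0.54 for GYPE on the log2 scale, where 0.287% and 0.0688% of all genes were called. With 1 of WT day 6 replicate 2, WT day 10 replicate 4 or any ZEB2 shRNA library left out, 0 were called, and without WT day 10 replicate 3, 1 was.

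Few blood genes were called at days 0 and 2. At day 0, with thresholds of 2-fold and 10% FDR, NKX2-5 shRNA cells had LCP1 called higher, at 11.8 and 14.8 CPM against 2.17 and 2.24 CPM in WT (2.63% of all genes were called higher), and TAL1 and IKZF1 lower (1.4% were called lower). TAL1 was at 0.308 and 0.143 CPM against 0.875 and 0.833 CPM. ZEB2 shRNA cells had LCP1 called higher, at 5.18 and 8.83 CPM (1.42%), and VAV1 lower, with 3 counts against 29 in WT (0.781%), a 19.9-fold ratio with an interval of 6.17 to 102. In ZNF503 shRNA cells TAL1, at 2.37 and 2.17 CPM, and AHSP were called higher (1.32%) and PF4 lower (1.24%). NKX2-5 itself was nearly absent from WT cells at this day, with a mean of 0.314 CPM. The same held for ZEB2, at 0.117 CPM, and ZNF503, at 0.105 CPM. In the line that targets it, NKX2-5 was at 43.2% of WT, ZEB2 at 117.8% and ZNF503 at 126.7%, all at these low levels. With any 1 library left out, 0 genes were called for ZNF503 shRNA cells, and 1 for ZEB2 shRNA cells without ZEB2 shRNA or WT replicate 1.

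At day 2, at 4-fold and 10% FDR, IKZF1 was called lower in NKX2-5 shRNA cells, at 0.123 and 0.166 CPM against 0.581 and 0.741 CPM in WT, where 0.708% of all genes were called lower. At the same day the ZEB2 shRNA line had 0 called by edgeR or DESeq2, where 0.133% of all genes were, and 2 had an unadjusted p under 0.05 in each tool. In ZNF503 shRNA cells TAL1 and PF4 were called higher, where 0.817% of all genes were. TAL1 had 150 counts in ZNF503 shRNA and 1 in WT cells, a 63.2-fold ratio with a counting interval of 11.2 to 2513. PF4 was at 0.735 and 0.361 CPM against 0.065 and 0.247 CPM, with an adjusted p of 0.0519. DESeq2 called 1 gene, TAL1, with an adjusted p of 0.09699. The NKX2-5 shRNA call was lost without NKX2-5 shRNA replicate 1, and for ZNF503 shRNA cells 1 gene was called without WT replicate 1.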

How the data were processed

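Stranded total RNA of 34 libraries was counted by the authors, who aligned reads with TopHat2 2.0.14 to hg19 (GRCh37) and deposited raw read counts per RefSeq transcript region. Between 58.4% and 64.5% of the low counts per library were even, for which the cause was not tested, and intervals and floors cover counting error only, since reads are not independent molecules. Of 41627 accessions 96.8% matched a symbol, and the row with the largest total was taken per gene, where 21 of the 39 members had more than 1 row. Replicates 1 and 2 of WT and ZEB2 shRNA at day 10 had 42704 values for 41627 accessions and were left out: their median rank correlation with replicate 3 of their group, over blocks of 1000 rows, was 0.0079 to 0.0131, against 0.984 and 0.993 for replicate 4. This left 30 libraries of 9189943 to 90814577 counts.

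Groups were compared with edgeR 4.0.16 in R 4.3.3 (TMM scaling, filterByExpr, quasi-likelihood test, Benjamini-Hochberg adjustment over all genes tested), checked on simulated data. Called means 2-fold and 10% FDR at day 0, 4-fold and 10% at day 2, and 8-fold and 1% at days 6 and 10. The standard error was taken as the size of the log2 fold change over the root of the F statistic. CPM used TMM over all 30 libraries. Where a group had 0 counts, the fold is a bound with 3 counts per library as the floor, and with 1 to 3 counts it is a ratio with an exact 95% interval. Alternatives were DESeq2 1.42.0, RLE size factors, library totals, no filter, summed rows, 1 fit of all libraries, 5% FDR, a replicate block and leaving out each library. The members, lists and tests were chosen with earlier results of these data known. The text names all 39 members, with values for those that reach 1 CPM in a group, and from each added list at most the 3 called genes with the largest change in NKX2-5 shRNA against WT cells of day 10. Some results are not reported here.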

Additional observations from a re-analysis of the deposited data

Results flagged for a closer look

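Results are listed here because the change from day 6 to day 10 differed between an shRNA line and WT by a test of the difference itself (the edgeR interaction term, at 8-fold and 1% FDR). In NKX2-5 shRNA cells the log2 change exceeded that of WT by 3.648 for TAL1, 5.218 for KLF1, 3.718 for LYL1 and 5.532 for IKZF1 among the transcription factors. It did so by 7.463 for PLEK, 4.685 for MMRN1, 5.825 for ITGA2B and 3.579 for ITGB3 among the platelet genes, and by 4.006 for GYPB, 7.933 for ALAS2 and 4.992 for ANK1 among the erythroid genes. Among progenitor and leukocyte genes the excess was 5.05 for CD34, 4.245 for SPN and 3.786 for LAPTM5. In ZEB2 shRNA cells the difference from the WT change was -4.84 for GYPE and 4.012 for CD34. The lines share the WT libraries of both days. With 1 library left out, the excess in NKX2-5 shRNA cells ranged from 3.49 to 5.705 for ANK1 and from 3.161 to 5.184 for SPN. ITGB3 in NKX2-5 shRNA cells was at 0.700 and 1.30 CPM at day 6, against 12.9 and 7.51 CPM in WT. At day 10 it was at 137.2 and 86.6 CPM, against 105.0 and 79.6 CPM in WT.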

How the results depend on the processing

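No member value that reached 5% FDR in the main fit changed sign under the alternatives run. Weaker values, among them the PF4 call in ZNF503 shRNA cells at day 2, were not followed for sign. With 1 library left out, the count of called members against WT ranged from 3 to 3 (NKX2-5 shRNA), 1 to 2 (ZEB2 shRNA) and 0 to 0 (ZNF503 shRNA) at day 0, from 0 to 1, 0 to 0 and 1 to 3 at day 2, from 0 to 2, 0 to 1 and 3 to 5 at day 6, and from 7 to 23 (NKX2-5 shRNA) and 0 to 0 (ZEB2 shRNA) at day 10. It ranged from 3 to 18 for NKX2-5 against ZEB2 shRNA at day 10 and from 0 to 2 for NKX2-5 against ZNF503 shRNA at day 6. From day 2 to 6 it ranged from 6 to 10 in WT, 7 to 9 in NKX2-5 shRNA, 9 to 11 in ZEB2 shRNA and 6 to 10 in ZNF503 shRNA cells, and from day 6 to 10 from 3 to 8, 11 to 19 and 3 to 5 in WT, NKX2-5 and ZEB2 shRNA cells. For the difference in that change it was 9 to 17 (NKX2-5 shRNA) and 0 to 2 (ZEB2 shRNA). A group left with 1 library was assumed to vary like the others.

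At 5% FDR without a fold threshold, the counts were 4 (ZNF503 shRNA, day 2), 13, 7 and 15 (NKX2-5, ZEB2 and ZNF503 shRNA, day 6), 11 (ZEB2 shRNA, day 10), 28 (NKX2-5 against ZEB2 shRNA), 6 (NKX2-5 against ZNF503 shRNA), 20 (WT, day 2 to 6), 14, 32 and 15 (WT, NKX2-5 and ZEB2 shRNA, day 6 to 10) and 22 and 6 for the differences in that change. With summed rows the count was 2 for NKX2-5 and 1 for ZNF503 shRNA at day 2, 2 for ZNF503 shRNA at day 6 and 1 for NKX2-5 against ZNF503 shRNA, where library totals also gave 1. DESeq2 gave 1 for ZNF503 shRNA at day 2, and 1 fit of all libraries gave 1 for ZNF503 shRNA at day 0. For the ZEB2 shRNA difference in change, DESeq2, no filter and 1 fit of all libraries each gave 4. The causes were not tested. Library totals moved the median log2 value of all genes most for ZEB2 shRNA at day 10, from 0.03 to 0.21.

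Same-numbered replicates shared only a number, with correlations of their deviations from -0.157 to 0.176. With the replicate block, counts were 3 for ZNF503 shRNA at days 2 and 6, 10 for NKX2-5 and ZEB2 shRNA from day 2 to 6 and 17 for NKX2-5 shRNA from day 6 to 10, and elsewhere equalled those without the block. For ZEB2 shRNA against WT at day 10 a crossed pairing, chosen after seeing the data, also gave 4. No paired analysis was possible because the groups share no 2 numbers for NKX2-5 shRNA against WT or ZEB2 shRNA at day 10, the WT and ZEB2 shRNA changes from day 6 to 10 and the differences in change. Depth limits the genes under 1 CPM, 6 of 39 members.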
